A study of Mus musculus with 6 samples.

Results

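Histone genes make up 90 of the 34866 genes in the deposited count table of mouse liver. They were taken by symbol, once the Ensembl identifiers had been matched to symbols: 70 clustered genes, whose symbols begin with Hist and a cluster number, and 20 variant genes, whose symbols begin with H2af, H3f3 or H1f. The livers came from 8-week-old male C57BL/6 mice that had received intraperitoneal injections, and RNA with poly(A) tails was sequenced in 3 vehicle and 3 iD1 libraries. The samples titled vehicle are labelled untreated under treatment, iD1 is a code name, and neither its dose, its exposure time nor its target is given. The vehicle libraries are replicate 1, replicate 2 and a replicate without a number, since its column carries a number that no sample title has, and the iD1 libraries are replicates 1, 2 and 3. Values below follow that order. Whether each library is a separate animal is not stated, so the p-values below reflect only how far these libraries differ, which may be technical.

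DNA is wound around nucleosomes built from the core histones H2A, H2B, H3 and H4, and the linker histone H1 binds where the DNA enters and leaves. The clustered genes supply the bulk of these proteins during S phase. Their transcripts usually carry no introns and no poly(A) tail and end instead just after a short stem-loop, which the stem-loop binding protein SLBP recognises. The variant genes are expressed outside S phase too, mostly as polyadenylated transcripts, many of them spliced, and supply the replacement histones that cells which no longer divide, such as most hepatocytes, put into chromatin. A library made from poly(A) RNA therefore sees the variant genes well and the clustered genes only where some of their transcripts are polyadenylated.

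The stem-loop was read from the annotated transcripts of GENCODE M21 (GRCm38) as the 16 letters in capitals in the sequences below, with any base allowed at their positions 4, 8, 10 and 13, in the direction of the transcript. It was found in 64 of 141767 transcripts (0.0451%), which belong to 57 genes. Of these genes, 44 were clustered histone genes, 1 was the variant gene H2afx and 12 were other genes. The loops below are those of the clustered genes that fell in iD1 livers and have the loop, then of the 2 abundant clustered genes Hist1h1c and Hist2h2aa2, and of H2afx. Capitals mark the loop, and each sequence has up to 5 bases on either side.
Hist2h3c1: acaaaGGCTCTTTTCAGAGCCaccac
Hist2h3c2: acaaaGGCTCTTTTCAGAGCCaccac
Hist1h4i: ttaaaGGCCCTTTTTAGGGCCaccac
Hist1h1d: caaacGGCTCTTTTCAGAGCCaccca
Hist1h1c: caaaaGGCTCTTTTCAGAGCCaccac
Hist2h2aa2: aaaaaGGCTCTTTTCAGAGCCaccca
H2afx: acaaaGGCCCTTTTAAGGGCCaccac
The loops of Hist2h3c1 (chr3:96247327-96247342, plus strand) and Hist2h3c2 (chr3:96238485-96238500, minus strand) are the same letters with the same flanks. That of Hist1h4i lies at chr13:22040966-22040981 on the minus strand and that of Hist1h1d at chr13:23555787-23555802 on the plus strand. That of H2afx, at chr9:44335240-44335255 on the plus strand, is followed by a further 822 annotated bases. No match was found in the transcripts of Hist2h2be, the fifth clustered gene that fell, and no match says only that these letters are not there.

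Total estimated counts ranged from 23515571 to 37613549 per library, and 13718 genes had enough counts to be tested. Levels are in CPM, the share of a library's counts on a common scale, with library sizes adjusted by TMM factors. These were 1.108, 1.104 and 1.01 in vehicle and 1.005, 0.878 and 0.916 in iD1 libraries, so every iD1 factor was below every vehicle factor. Mitochondrially encoded genes took 10.63% to 13.59% of the counts in vehicle and 8.68% to 10.28% in iD1 libraries. The 6 hepatocyte markers summed to 73730 to 96130 CPM in vehicle and to 93484 to 103771 CPM in iD1 libraries, so the labelled tissue was present. The neutrophil list summed to 0.434 to 0.532 CPM in vehicle and to 1.97 to 9.71 CPM in iD1 libraries. Its 3 tested genes of 9, S100a8, S100a9 and Retnlg, were all called higher, but S100a8 and Retnlg lay under the level of the low-count filter, 0.336 CPM, in every vehicle library and so could only come out higher. Ltf was at 0 in every library, and Ly6g, Mpo and Camp were at 0 in every iD1 library. Over all 8 cell type lists, edgeR called 7 of 42 tested markers higher and 2 lower, where 8.42% and 8.3% of all tested genes were so called. DESeq2 called 9 of the markers higher and 5 lower, and limma-voom 6 and 4. Among all 13718 tested genes, DESeq2 called 1353 higher and limma-voom 1146, which were 52.2% and 50.4% of their calls. Besides the neutrophil genes, edgeR called the hepatocyte markers Hnf4a, Cyp2e1 and Apoa1 and the cholangiocyte marker Sox9 higher. It called the stellate cell marker Lrat and the cholangiocyte marker Krt19 lower. Krt19 lay under the filter level in every iD1 library. The part of these markers and of the mitochondrial share in the results below was not tested. In bulk tissue, fewer cells of a type and less RNA per cell cannot be told apart.

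Of the 90 histone genes, 16 had no count in any library, 50 had counts but too few to be tested, and 24 were tested, 14 of them clustered and 10 variant. In iD1 livers 5 clustered genes fell and none rose, and 1 variant gene rose and none fell. Of the clustered genes, 56 belong to cluster 1 and 10 to cluster 2, with 8 and 4 tested and 2 and 3 called lower. The genes that fell were Hist2h3c1, Hist2h3c2, Hist2h2be, Hist1h1d and Hist1h4i, and the gene that rose was H3f3b, which like H3f3a encodes the replacement histone H3.3. With edgeR at an unadjusted p under 0.05, 8 clustered genes were lower and 0 higher and 1 variant gene was higher and 0 lower. The share of all tested genes at that unadjusted level is not given here, so these counts have no background beside them. DESeq2 and limma-voom each called 5 clustered genes lower, 0 clustered genes higher, 1 variant gene higher and 0 variant genes lower. Among all 13718 tested genes, DESeq2 called 1353 higher and limma-voom 1146, which were 52.2% and 50.4% of their calls. Over all tested genes, 8.42% were called higher and 8.3% lower, 16.7% in all, with edgeR's quasi-likelihood test and Benjamini-Hochberg adjustment at 0.05. Groups did not overlap, with iD1 lower, in 8 of the 14 tested clustered genes (18.7% of all tested genes), and with iD1 higher in 3 of the 10 tested variant genes, H3f3b, H1f0 and H2afy (18.5% of all tested genes). The median log2 fold change was -0.71 over the 14 tested clustered genes, with 13 of them below 0, and 0.13 over the 10 tested variant genes, with 3 below 0. Over all tested genes it was 0.00064, with 49.9% below 0. These shares of the clustered genes rest in part on the low-count filter: Hist1h1d and Hist2h3c2 passed it through the vehicle libraries alone, so they had to be lower in iD1 livers. Hist1h4i, Hist1h2be and Hist1h4k reached the filter level in all 3 vehicle libraries but in only 2, 1 and 1 iD1 libraries. Their iD1 libraries alone would not have passed the filter. Hist1h4h went the other way, with 2 vehicle and 3 iD1 libraries at that level. Among the 8 clustered genes above the filter level in all 6 libraries, all 8 log2 fold changes were below 0, their median was -0.58, and 2 were called.

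**Figure D1:**
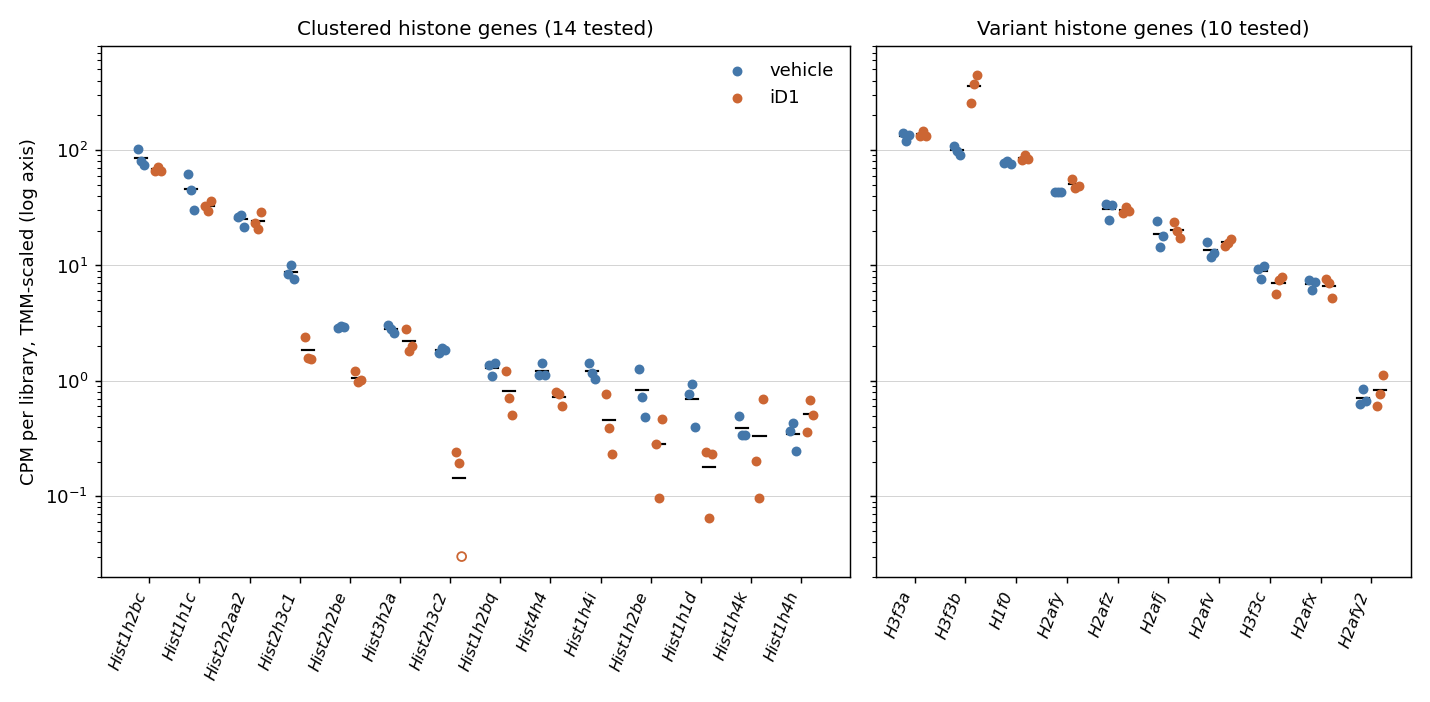
CPM of each tested histone gene in each library on a log axis, vehicle in blue and iD1 in orange, with a short black line at the group mean, for 14 clustered (left) and 10 variant genes (right). The open circle marks a library with 0 counts, drawn at the foot of the axis. The iD1 points of Hist2h3c1, Hist2h3c2 and Hist2h2be lie below all their vehicle points and those of H3f3b above.

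H3f3a and H3f3b had the highest CPM of the histone genes, though per kb of transcript Hist1h2bc (74.5 CPM per kb in vehicle) and Hist2h2aa2 (47.6) stood above H3f3a (46.7) and H3f3b (39.5) in vehicle livers. H3f3b (ENSMUSG00000016559.14, chr11:116021912-116027962, minus strand, 6 exons in its longest transcript) stood at 109, 98.1 and 91.1 CPM in the vehicle libraries and at 258, 376 and 449 CPM in the iD1 libraries. Every iD1 library lay above every vehicle library, and iD1 replicate 1 was the lowest of the iD1 group. The means were 99.3 ± 8.83 and 361 ± 96.4 CPM (SD, n = 3 each), a 3.64-fold rise with a log2 fold change of 1.86 (SE 0.20, adjusted p = 0.000687, edgeR's quasi-likelihood test). H3f3b was called higher under all 18 alternative settings and the main one. The neutrophil sum, which was also higher in iD1 libraries, was lowest of that group in iD1 replicate 1, as H3f3b was. The neutrophil sum was largest in iD1 replicate 2, whereas H3f3b was largest in replicate 3. The part of the neutrophil genes in the rise of H3f3b was not tested.

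H3f3a (chr1:180800832-180813943, minus strand) encodes the same H3.3 protein from a different transcript. It stood at 142, 121 and 135 CPM in vehicle and at 134, 146 and 132 CPM in iD1 libraries, so the groups overlapped. On the opposite strand it shares 638 bases with Gm17275, and whether counting used strand is not stated. The means of H3f3a were 133 ± 10.6 and 137 ± 7.41 CPM (SD, n = 3 each), with a log2 fold change of 0.05 (SE 0.12, adjusted p = 0.811, edgeR's quasi-likelihood test), a sign that turned under upper-quartile scaling and under scaling by library size alone. H3f3c, which the annotation lists as a processed pseudogene, had 9.41, 7.66 and 9.99 CPM in vehicle and 5.68, 7.51 and 7.94 CPM in iD1 libraries. Of its 50-base words, 70.2% also occur in other histone genes, so reads may have been shared with H3f3a. The log2 fold change of H3f3c was -0.36 (SE 0.17, adjusted p = 0.192, edgeR).

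The ratio of H3f3b to H3f3a CPM within a library does not depend on the scaling between libraries. It was 0.765, 0.810 and 0.677 in vehicle and 1.93, 2.58 and 3.39 in iD1 libraries. H3f3a therefore gave more CPM than H3f3b in every vehicle library and less in every iD1 library. Divided by the length of the longest transcript, H3f3b supplied 45.8% ± 2.28 of the summed H3f3a and H3f3b CPM per kb in vehicle and 74.1% ± 5.38 with iD1 (SD, n = 3 each). Only 8.4% of the 50-base words of H3f3b are found in another gene, and none in another histone gene, so its count rests little on sequence that other genes share.

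The starts of these paired genes are shown because H3f3b changed and H3f3a did not pass the test. Both windows of 300 bases are from RefSeq (GRCm38.p6) and read in the direction of the gene. Capitals mark matches, on either strand, to the box CCAAT, to the TATA box as the letters TATAAA, or to the octamer ATTTGCAT, an element known from H2B and immunoglobulin promoters. The start of H3f3b in RefSeq lies inside the span of the GENCODE gene. The windows lie at chr11:116024455-116024754 for H3f3b and at chr1:180813556-180813855 for H3f3a.
H3f3b: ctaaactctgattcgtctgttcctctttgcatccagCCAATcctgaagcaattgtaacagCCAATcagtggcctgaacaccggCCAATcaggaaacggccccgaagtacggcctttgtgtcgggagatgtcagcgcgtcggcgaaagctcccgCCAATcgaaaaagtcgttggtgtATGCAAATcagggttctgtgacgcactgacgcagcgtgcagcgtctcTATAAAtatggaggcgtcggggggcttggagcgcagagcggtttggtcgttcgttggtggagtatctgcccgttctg
H3f3a: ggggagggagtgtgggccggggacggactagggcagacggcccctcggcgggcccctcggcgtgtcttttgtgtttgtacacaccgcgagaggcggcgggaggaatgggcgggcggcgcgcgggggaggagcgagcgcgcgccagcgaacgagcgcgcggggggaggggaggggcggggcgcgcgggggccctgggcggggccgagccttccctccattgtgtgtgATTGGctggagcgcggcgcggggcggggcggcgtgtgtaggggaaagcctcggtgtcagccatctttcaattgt
The H3f3b window holds CCAAT at -214, -190, -167 and -97, the octamer at -74 and TATAAA at -27, counted from the first transcribed base as 0. The H3f3a window holds CCAAT on the other strand at -24 and neither TATAAA nor the octamer. Among the same windows of 32851 starts, 37.408% hold CCAAT, 13.616% TATAAA and 1.735% the octamer. Of the 90 histone genes, 75 had a window. H3f3b was the only variant gene of 14 with TATAAA and the only one with the octamer, whereas 35 of 61 clustered genes held TATAAA, 14 the octamer and 52 CCAAT. The CRE letters TGACGTCA stood in 4 clustered and 0 variant genes (1.79% of all windows), and the AP1 letters TGANTCA in 3 clustered genes and in H3f3c (7.808%). No searched word contains another, and a match is a description, not a site in use. Of the clustered genes that fell, all but Hist2h2be with a window, Hist1h1d and Hist1h4i held TATAAA, and CCAAT stood in Hist1h1d, Hist2h3c1 and Hist2h3c2. In these Hist2h3 genes it lies after the start, at 29 and 14.

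As a ratio of summed CPM, H3 differed most among the clustered classes. Hist2h3c1 (ENSMUSG00000093769.4, chr3:96246685-96248509, plus strand, 1 exon) stood at 8.48, 10.1 and 7.57 CPM in vehicle and at 2.42, 1.59 and 1.53 CPM in iD1 libraries. All iD1 libraries lay far below all vehicle libraries. Its means were 8.70 ± 1.26 and 1.85 ± 0.497 CPM (SD, n = 3 each), a 4.71-fold fall with a log2 fold change of -2.24 (SE 0.22, adjusted p = 0.000444, edgeR's quasi-likelihood test). Hist2h3c2 (ENSMUSG00000081058.5, chr3:96238108-96239127, minus strand), the mirror copy in the same cluster, stood at 1.73, 1.93 and 1.87 CPM in vehicle and at 0.242, 0.194 and 0 CPM in iD1 libraries. It had 193 counts in all vehicle libraries and 12 in all iD1 libraries, and the groups were far apart. Its log2 fold change was -3.56 (SE 0.54, adjusted p = 0.00287, edgeR's quasi-likelihood test). Hist2h3c2 lay under the filter level in every iD1 library and could only come out lower under the main filter. Both genes were called under every alternative setting that was run.

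These copies are not independent of each other. Every 50-base word of Hist2h3c1 occurs in another gene, 34.7% in other histone genes, and 63.5% of those of Hist2h3c2 occur in other histone genes. A predicted gene, Gm20634, covers all 1825 bases of Hist2h3c1 on the same strand. Gm20634 has no entry among the counts given here, so it could not be examined. The sum over all 12 clustered H3 genes, which reads shared among them leave unchanged, was 10.9, 12.1 and 9.53 CPM in vehicle and 2.94, 1.81 and 1.997 CPM in iD1 libraries. The sum was thus 4.82 times as large in vehicle as in iD1 livers, from 1141 and 172 counts, with no overlap. The other 10 clustered H3 genes had at most 8 counts over a group.

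With the H3 genes set side by side per kb of transcript, shares were taken of their summed CPM per kb in poly(A) RNA. That sum includes the pseudogene H3f3c, which may share reads with H3f3a. The clustered H3 genes held 5.86%, 7.004% and 5.37% of it in vehicle and 1.13%, 0.503% and 0.648% in iD1 libraries. The mean share was 6.08% ± 0.839 in vehicle and 0.762% ± 0.331 with iD1 (SD, n = 3 each), a description with no test. The share of H3f3b went from 34.3% ± 2.32 to 67.4% ± 5.30, that of H3f3a from 40.5% ± 0.984 to 23.5% ± 4.75, and that of H3f3c with the pseudogenes from 19.2% ± 2.12 to 8.28% ± 0.373. Shares are bound to each other, so the levels stand beside them. The level of the clustered H3 genes was 6.98 ± 0.743 CPM per kb in vehicle and 1.53 ± 0.388 with iD1, without overlap. The level of H3f3a was 46.7 ± 3.74 and 48.3 ± 2.61 CPM per kb, and that of H3f3c with the pseudogenes 22.1 ± 3.0003 and 17.4 ± 2.92, both with overlap. Thus the levels of the clustered H3 genes and of H3f3b were apart between the groups, and the shares of all 4 kinds were.

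**Figure D2:**
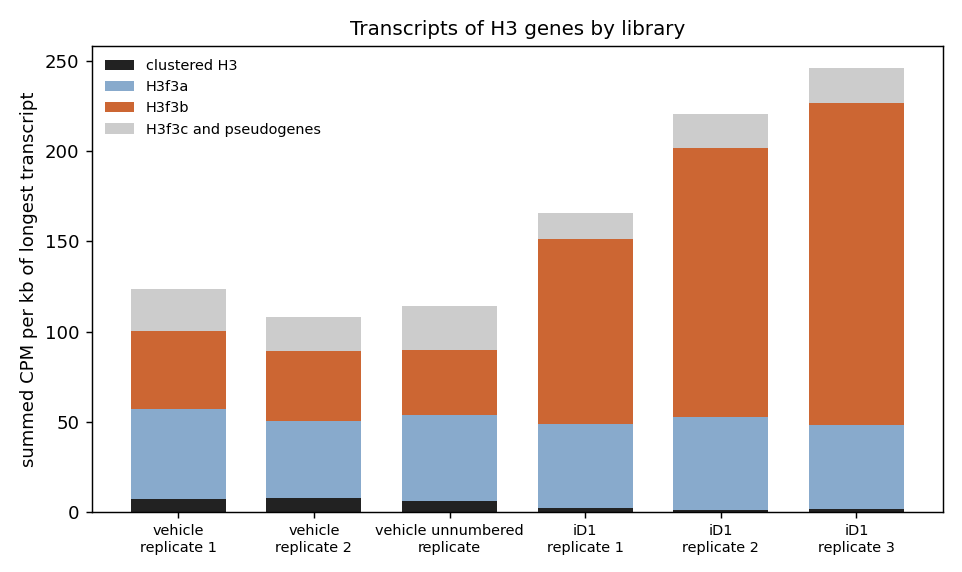
Stacked bars of summed CPM per kb of the longest transcript, for the clustered H3 genes, H3f3a, H3f3b and H3f3c with the pseudogenes, in each of the 6 libraries. The H3f3b segment is 36.2 to 43.2 CPM per kb in vehicle and 103 to 179 CPM per kb in iD1 libraries, and the black segment of clustered H3 genes is thinner in every iD1 library.

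Among the H2B genes, Hist2h2be (ENSMUSG00000068854.7, chr3:96221119-96223738, plus strand, 1 exon) lies in the same cluster as the Hist2h3 genes and shares no 50-base word with any other gene. It stood at 2.89, 2.96 and 2.94 CPM in vehicle and at 1.21, 0.971 and 1.02 CPM in iD1 libraries. The vehicle libraries were almost level, and every iD1 library was below them. Its log2 fold change was -1.46 (SE 0.22, adjusted p = 0.00287, edgeR's quasi-likelihood test), a 2.75-fold fall. The most abundant clustered gene was Hist1h2bc, whose longest annotated transcript has 2 exons. It stood at 103, 81.2 and 74.1 CPM in vehicle and at 66.4, 71.2 and 66.6 CPM in iD1 libraries. The groups did not overlap but lay close, and its log2 fold change was -0.34 (SE 0.14, adjusted p = 0.128, edgeR). Hist1h2be had 1.26, 0.723 and 0.490 CPM in vehicle and 0.282, 0.0971 and 0.464 CPM in iD1 libraries, with a log2 fold change of -1.60 (SE 0.57, adjusted p = 0.0835, edgeR). Its annotated transcript overlaps Hist1h1e on the same strand over 496 bases. Hist1h2bq, 97.3% of whose 50-base words occur in other histone genes, ranged from 1.11 to 1.44 CPM in vehicle and from 0.511 to 1.21 CPM in iD1 libraries, with a log2 fold change of -0.67 (adjusted p = 0.228, edgeR). The sum over 19 H2B genes was 92.1 ± 15.8 CPM in vehicle and 71.2 ± 2.29 CPM with iD1 (SD, n = 3 each), and most of it was Hist1h2bc.

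Of the linker histone genes, Hist1h1d (ENSMUSG00000052565.7, chr13:23553262-23560686, plus strand) stood at 0.765, 0.940 and 0.398 CPM in vehicle and at 0.242, 0.0647 and 0.232 CPM in iD1 libraries. The groups did not overlap, but there were only 75 counts in vehicle and 13 in iD1 libraries. Hist1h1d lay under the filter level in every iD1 library and could only come out lower. Its log2 fold change was -2.01 (SE 0.55, adjusted p = 0.0357, edgeR's quasi-likelihood test). The adjusted p of Hist1h1d was 0.0907 without vehicle replicate 1, 0.132 without vehicle replicate 2, 0.111 without iD1 replicate 2 and 0.0751 without iD1 replicate 3. Hist1h1c, the most abundant linker histone gene of the clusters, stood at 61.9, 44.8 and 30.1 CPM in vehicle and at 32.6, 29.5 and 36.1 CPM in iD1 libraries. The vehicle libraries were spread over a range that reached down to the iD1 values, and the log2 fold change was -0.48 (SE 0.24, adjusted p = 0.211, edgeR). Without the unnumbered vehicle library, the lowest of its group, the log2 fold change of Hist1h1c was -0.71 with an adjusted p of 0.0388, and without vehicle replicate 1, the highest, it was -0.20 with an adjusted p of 0.536 (edgeR). Summed over the 6 clustered linker genes the level was 63.1, 46.2 and 30.7 CPM in vehicle and 32.9, 29.7 and 37.0 CPM in iD1 libraries, with overlap. The variant linker gene H1f0, a histone of cells that have left the cycle, stood at 76.9, 80.3 and 75.5 CPM in vehicle and at 82.5, 91.0 and 83.8 CPM in iD1 libraries. The iD1 libraries of H1f0 all lay above the vehicle libraries by a small margin, with a log2 fold change of 0.14 (SE 0.11, adjusted p = 0.394, edgeR), and its sign turned with library size alone.

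Among the 4 tested H4 genes, Hist1h4i (ENSMUSG00000060639.5, chr13:22040636-22041362, minus strand) stood at 1.43, 1.18 and 1.04 CPM in vehicle and at 0.766, 0.388 and 0.232 CPM in iD1 libraries. The groups did not overlap, and the log2 fold change was -1.38 (SE 0.42, adjusted p = 0.049, edgeR's quasi-likelihood test). Hist1h4i was at the edge of the threshold: its adjusted p was 0.0529 without robust shrinkage (edgeR). Without vehicle replicate 1 it was 0.132, without vehicle replicate 2 0.111, without the unnumbered vehicle library 0.0985, and 0.139 without either iD1 replicate 2 or 3. Hist4h4 stood at 1.13, 1.42 and 1.13 CPM in vehicle and at 0.806, 0.777 and 0.604 CPM in iD1 libraries, without overlap, and had a log2 fold change of -0.75 (SE 0.30, adjusted p = 0.118, edgeR). Hist1h4h was the only tested clustered gene with a log2 fold change above 0, at 0.57 (SE 0.42, adjusted p = 0.391, edgeR), from 37 counts in vehicle and 41 in iD1 libraries. Hist1h4k had 40 and 23 counts, and its log2 fold change was -0.31 (SE 0.63, adjusted p = 0.782, edgeR). The sum over the 13 clustered H4 genes was 4.77, 3.82 and 3.43 CPM in vehicle and 2.46, 2.24 and 2.85 CPM in iD1 libraries, again without overlap.

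As a ratio of summed CPM, with 0.941 times as much with iD1 as in vehicle, the clustered H2A genes differed least among the clustered classes. Hist2h2aa2 stood at 26.2, 27.6 and 21.7 CPM in vehicle and at 23.4, 20.7 and 29.3 CPM in iD1 libraries, with overlapping groups and a log2 fold change of -0.04 (SE 0.15, adjusted p = 0.883, edgeR). All of its 50-base words occur in other histone genes, so its count cannot be told apart from that of its mirror copy. It lies between the Hist2h3 copies, at chr3:96239749-96240276, beside genes that fell. Hist3h2a had 3.06, 2.84 and 2.60 CPM in vehicle and 2.82, 1.81 and 1.997 CPM in iD1 libraries, with a log2 fold change of -0.36 (SE 0.23, adjusted p = 0.318, edgeR), and overlaps Trim17 on the same strand over 708 bases. The sum over all 20 clustered H2A genes was 28.7 ± 3.05 CPM in vehicle and 27.0 ± 4.36 CPM with iD1 (SD, n = 3 each), and its direction turned when iD1 replicate 2 was left out.

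**Figure D3:**
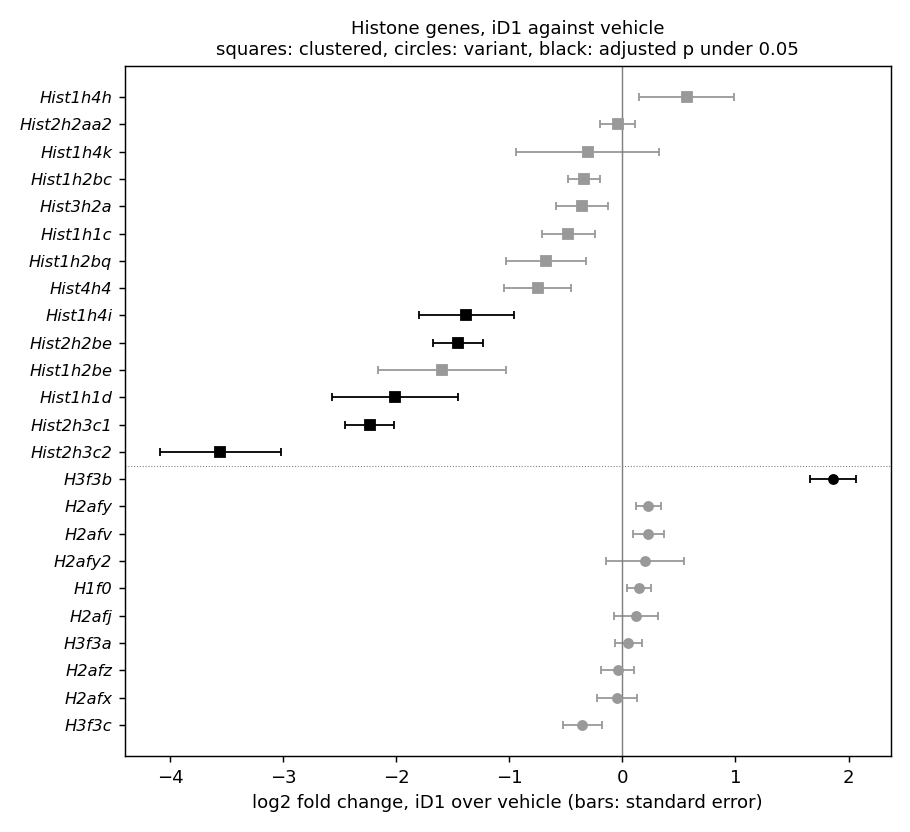
Log2 fold change of iD1 over vehicle for each tested histone gene, with bars of 1 standard error, squares for clustered and circles for variant genes, and black for genes called at an adjusted p under 0.05. The clustered genes run from 0.57 for Hist1h4h down to -3.56 for Hist2h3c2, and of the variant genes H3f3b, at 1.86, stands apart from the rest, which lie between -0.36 and 0.23.

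None of the 6 tested H2A variants was called. H2afy, which encodes macroH2A1, stood at 43.0, 43.1 and 43.2 CPM in vehicle and at 55.8, 46.7 and 49.0 CPM in iD1 libraries. The vehicle libraries of H2afy were level and the iD1 libraries all higher, with a log2 fold change of 0.23 (SE 0.11, adjusted p = 0.195, edgeR). H2afz and H2afv encode the closely related H2A.Z proteins found at promoters. H2afz had 34.4, 24.8 and 33.8 CPM in vehicle and 28.5, 32.0 and 29.6 CPM in iD1 libraries, a log2 fold change of -0.04 (adjusted p = 0.873, edgeR). H2afv had 15.9, 11.9 and 12.8 CPM in vehicle and 14.8, 15.8 and 16.9 CPM in iD1 libraries, a log2 fold change of 0.23 (adjusted p = 0.292, edgeR), and its groups overlapped too. H2afj, which encodes H2A.J and lies beside Hist4h4 on chromosome 6, ranged from 14.3 to 24.1 CPM in vehicle and from 17.4 to 24.1 CPM in iD1 libraries (log2 fold change 0.12, adjusted p = 0.725, edgeR). H2afx, whose protein marks DNA breaks once phosphorylated, ranged from 6.07 to 7.42 CPM in vehicle and from 5.25 to 7.70 CPM in iD1 libraries (log2 fold change -0.05, adjusted p = 0.882, edgeR). H2afy2, for macroH2A2, was the least abundant tested variant, at 0.716 ± 0.112 CPM in vehicle and 0.832 ± 0.259 CPM with iD1 (SD, n = 3 each). Its log2 fold change was 0.20 (adjusted p = 0.741, edgeR), and Aifm2 overlaps it on the opposite strand over 233 bases. The signs of H2afj, H2afx, H2afy2 and H2afz turned under some alternatives.

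Summed over all genes of a kind, the clustered genes stood at 218, 179 and 149 CPM in vehicle and at 135, 130 and 143 CPM in iD1 libraries. The variant genes stood at 463, 408 and 427 CPM in vehicle and at 612, 743 and 793 CPM in iD1 libraries. The groups did not overlap in either sum, the clustered sum being lower and the variant sum higher in iD1 libraries. The mean variant sum went from 433 CPM in vehicle to 716 CPM with iD1, and H3f3b within it from 99.3 to 361 CPM. H3f3b was the only variant gene called, so the higher sum does not show that the variant genes rose as a class. Hist1h2bc, Hist1h1c and Hist2h2aa2 made up most of the clustered sum. Without these 3 genes, a choice made after their values were seen, the other 67 clustered genes summed to 27.5, 25.9 and 22.9 CPM in vehicle and to 12.2, 9.10 and 11.2 CPM in iD1 libraries, 2.35 times as much in vehicle as in iD1 livers. The 5 genes called lower are among the 67, and none of the 3 left out was called, so this ratio is not separate from those calls. The 56 clustered genes with too few counts for a test summed to 3.11 ± 1.25 CPM in vehicle and 2.21 ± 0.965 CPM with iD1 (SD, n = 3 each), with overlap. The largest of these by count were Hist1h2bh with 41 counts in vehicle and 16 in iD1 libraries, Hist2h4 with 37 and 7, Hist1h1e with 31 and 9, and Hist1h2bg with 26 and 11. Of the variant genes that were not tested, H1fx had the most counts, 13 in vehicle and 12 in iD1 libraries, and the germ-line genes H1foo and H1fnt had none.

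The annotated length past the stem-loop is given for the tested and the untested clustered genes, since poly(A) RNA was sequenced. Of the 14 tested clustered genes, 10 have the loop, and the annotated transcript runs on for a median of 1003.5 bases after it, with 8 of the 10 past 300 bases. Of the 56 that were not tested, 34 have the loop, with a median of 49 bases after it and 9 past 300 bases. The poly(A) signal AATAAA stands in the last 50 annotated bases of 7 of the 14 tested and 8 of the 56 untested clustered genes, and of 8 of the 10 tested variant genes. These are counts of annotation, which is itself built from transcripts, and they carry no test. Of the called genes, Hist1h1d has 4884 bases after the loop, Hist2h3c1 1167, Hist2h3c2 377 and Hist1h4i 330. Of the abundant genes that were not called, Hist3h2a has 1643 and Hist1h1c 840. Hist2h2aa2 has 35 and still reached 47.6 CPM per kb in vehicle livers, the highest level per kb of the clustered genes with a loop.

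**Figure D4:**
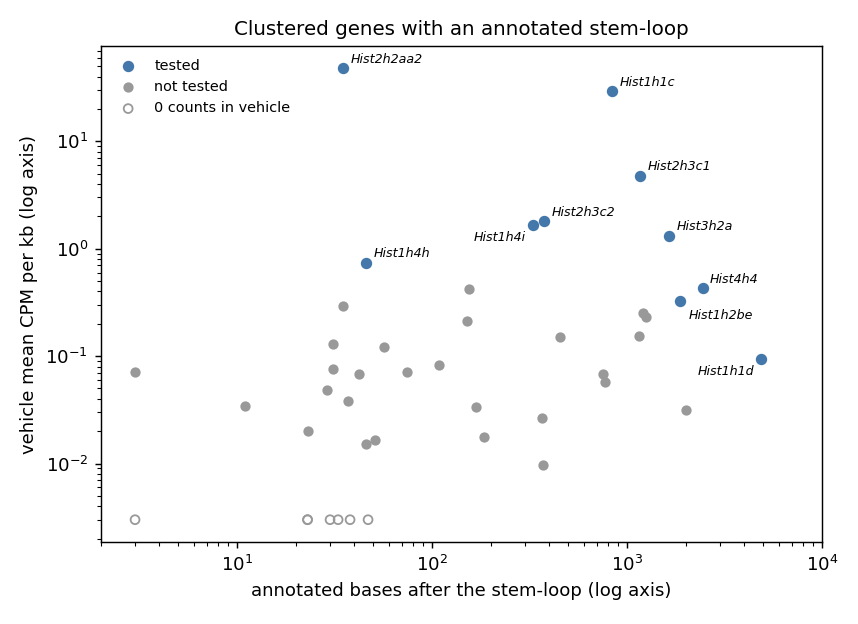
Mean vehicle level in CPM per kb of transcript against the annotated bases after the stem-loop, both on log axes, for the 44 clustered genes with the loop; tested genes in blue with names, untested in grey, and open circles at the foot for 7 genes with 0 counts in vehicle. Of the 10 tested genes, 8 lie past 300 bases, and Hist2h2aa2 and Hist1h4h do not.

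Genes that make, process and turn over histone transcripts were read from the same test. Of 23 tested genes of histone mRNA processing and turnover, 1 rose and 2 fell, with a median log2 fold change of -0.09. Over all tested genes 8.42% were called higher and 8.3% lower, and the counts of this list and of the following lists lie near those shares. Lsm1, of the cytoplasmic ring that promotes decay of mRNA, rose by 0.44 on the log2 scale (adjusted p = 0.0351, edgeR). Ncbp2, the small cap-binding subunit, fell by 0.78 (adjusted p = 0.00500, edgeR) and Hinfp, an activator of H4 genes, fell by 0.50 (adjusted p = 0.0482, edgeR). Slbp itself stood at 9.45, 8.70 and 11.2 CPM in vehicle and at 12.5, 12.5 and 12.1 CPM in iD1 libraries. The iD1 libraries of Slbp were all above those of vehicle, with a log2 fold change of 0.34 (SE 0.13, adjusted p = 0.110, edgeR). With library size alone, 0 genes of this list were called higher and 5 lower, and leaving out any 1 library took away the call of Lsm1. Hinfp lost its call without any library other than iD1 replicate 1 (adjusted p from 0.0764 to 0.1696, edgeR), and Ncbp2 was called without any 1 library. With all libraries, Hinfp was just short of a call by DESeq2 (adjusted p = 0.0501) and limma-voom (adjusted p = 0.0525). The same held in edgeR without robust shrinkage (0.0523) and with the GC content and length correction (0.0504). Other scalings, other filters and thinning kept the call of Hinfp.

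Of 31 tested chaperones and deposition factors, 3 rose and 2 fell, with a median of 0.08, near the shares over all genes. Ubn1, a subunit of the complex that deposits H3.3, rose by 0.50 on the log2 scale, while Hira, the core of that complex, had a log2 fold change of -0.08 (adjusted p = 0.774, edgeR). Ino80, a remodeller that acts on H2A.Z, rose by 0.74 and Chaf1b, of the factor that deposits H3 at replication, by 1.01. Ruvbl2 fell by 0.52. Asf1b, a chaperone of newly made H3 and H4 in dividing cells, stood at 0.998, 0.771 and 0.735 CPM in vehicle and at 0.484, 0.129 and 0.139 CPM in iD1 libraries, and fell by 1.73. In iD1 replicates 2 and 3 Asf1b lay under the filter level, so it passed the filter only with the vehicle libraries. The adjusted p of these 5 genes ran from 0.00962 for Ino80 to 0.0438 for Asf1b (edgeR). Without iD1 replicate 1, 3 genes of this list were called higher and 4 lower. Without any of the other libraries, at most 2 were called higher and 0 lower, and with library size alone 1 and 3.

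The S phase list, 27 tested genes, did not move one way: 2 rose and 2 fell, near the shares over all genes, with a median of -0.13. Ccne1, the cyclin of entry into S phase, rose by 1.75 on the log2 scale and Cdc45, of the replicative helicase, by 1.51. Tk1, the thymidine kinase of S phase, fell by 1.03. E2f2 had a log2 fold change of -2.52, but it lay under the filter level in every iD1 library and could only come out lower. Without iD1 replicate 2, 3 genes of the list were called higher, without iD1 replicate 3 or any vehicle library 1 was, and 2 were called lower in each case. Mki67, the usual marker of cycling cells, was near 1 CPM in both groups, 1.03 ± 0.330 in vehicle and 0.778 ± 0.257 with iD1 (SD, n = 3 each), with an adjusted p of 0.490 from edgeR. The summed list ran from 157 to 190 CPM in vehicle and from 156 to 175 CPM in iD1 libraries, so the groups overlapped. Its part in the fall of the clustered genes was not tested.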

How the data were processed

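The deposited values are estimated counts for each gene in 6 libraries, with no scaling by depth. Per the labels' protocols, TRIzol and RNeasy gave the liver RNA, and a TruSeq stranded mRNA kit the libraries. The sources used here do not name the aligner, quantifier, build or annotation. The authors' estimated counts, of which 22.6% to 27.7% per library were fractional, were rounded for testing. Symbols were found for 34582 of 34866 identifiers. Of the versioned identifiers 93.4% match GENCODE M21 (GRCm38), and 99.2% without version; positions, lengths and stem-loops come from it, and promoters from RefSeq.

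Genes were kept by filterByExpr (minimum count 10, minimum total 15), scaled by TMM and tested with edgeR 4.0.16 in R 4.3.3 by the robust two-sided quasi-likelihood F test, with Benjamini-Hochberg adjustment over 13718 genes at 0.05. The SE is the log2 fold change over the square root of F, and CPM use TMM-scaled sizes. The code was tested on simulated data. No pair of libraries of a group agreed within sampling noise. Alternatives were other scalings, DESeq2 1.42.0, limma-voom 3.58.1, other filters, thinning, GC and length correction, a replicate block and leaving out each library.

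Members and lists were chosen with earlier results of these data known. Named are all called members, all tested variants, the 6 most abundant uncalled clustered genes, the 4 untested members with the most counts and up to 4 called genes per pathway list and direction; Hist1h2be, Hist1h4h, Hist1h4k, H1fx, H1foo, H1fnt, Slbp, Hira and Mki67 were added after their values were seen.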

Additional observations from a re-analysis of the deposited data

How the results depend on the processing

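H3f3b, Hist2h3c1 and Hist2h3c2 were called in the same direction under the 18 alternatives run. Under the main filter the direction of Hist2h3c2 was fixed in advance. Hist2h2be lost its call only with the replicate block and GC content and length trends removed together (adjusted p = 0.0697, edgeR), where 3 clustered genes were called lower. With the replicate block alone, 4 clustered genes were called lower with Hist1h2be among them (adjusted p = 0.0398, edgeR), while Hist1h1d (0.0631) and Hist1h4i (0.185) were not called, nor with the block and the correction together (0.111 and 0.186). No gene of the histone mRNA processing list was called with the block. The block leaves 1 residual degree of freedom. It rests on numbers 1 and 2 only, whose libraries' deviations correlated by 0.169 and -0.127, so they share only a number. Leaving out 1 library gave 3 to 5 clustered genes called lower: 3 without vehicle replicate 1, vehicle replicate 2, iD1 replicate 2 or iD1 replicate 3. With library size alone the median of all genes moved to -0.20, H3f3c was 1 variant gene called lower, Hist1h2bc was called too (adjusted p = 0.0406, edgeR), and 24.1% of the called genes were higher, against 50.4% with TMM and 38.4% with upper-quartile factors.

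Over all genes, 597 were called higher and 1883 lower with library size alone, 434 and 393 with the replicate block, and 380 and 230 with the block and the GC content and length correction. Leaving out 1 library gave 592 to 1201 higher and 578 to 1373 lower, with the lowest values without the unnumbered vehicle library (592 higher, 620 lower) and without iD1 replicate 3 (653 higher, 578 lower). Without vehicle replicate 2 they were 713 and 595, without vehicle replicate 1 698 were lower, and without iD1 replicate 2 715 were lower.

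Signs turned only for log2 values that were not called. With library size alone H1f0 was at -0.062, H2afj at -0.079, H2afy2 at -0.016 and H3f3a at -0.15, and with upper-quartile factors H3f3a was at -0.025. With the replicate block H2afx was at 0.13, H2afy2 at -0.093 and H2afz at 0.050. With the block and the GC content and length correction they were at 0.11, -0.12 and 6.31e-05. Leaving out 1 library gave -1.39 to 0.17 for Hist1h4k, -0.19 to 0.060 for Hist2h2aa2, -0.047 to 0.33 for H2afj, -0.16 to 0.096 for H2afx, -0.051 to 0.38 for H2afy2, -0.18 to 0.039 for H2afz, -0.012 to 0.10 for H3f3a and -0.22 to 0.017 for the clustered H2A sum. The causes were not tested. The 46 clustered genes that had counts but too few for a test give no result here. Whether depth or the use of poly(A) RNA kept their counts low was not tested.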
